A study of Mus musculus with 6 samples.

Results

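Imprinted genes of embryonic growth, 10 in all, were examined in MC3T3-E1 cells, an established osteoblastic line derived from mouse calvaria: Mest, Plagl1, Peg3, Grb10, H19, Dlk1, Meg3, Ndn, Peg10 and Sgce. They were picked by name, each matching 1 of the 43346 rows of the expression table. Differences of the members between the groups were known when they were chosen. Their differences are therefore given as a description, with no test. The other gene lists below were also chosen with earlier results of these data known. RNA was sequenced from 3 libraries labelled Rorβ-CRISPR (KO), from a line edited in the nuclear receptor gene Rorb, and 3 libraries of a control line. All cells had been kept in osteoblastic medium for 2 days after confluence. The labels do not give the guide, the number of edited clones, what the control line was treated with, or whether the replicates were separate cultures. The p-values below therefore measure only the spread between these libraries, which may be technical, and what the edit did cannot be told apart from anything else in which the 2 lines differ.

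Imprinted genes are read mainly from the copy inherited from 1 parent, under the control of DNA methylation set in the germ line. Many of them adjust fetal and placental growth, and several are highly expressed in the embryo and decline after birth. Plagl1, also called Zac1, encodes a zinc finger transcription factor known to act on a network of imprinted genes in the mouse embryo. In mesenchymal tissue, Mest, Dlk1 and H19 are known as genes of growing or immature cells.

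Values are the authors' CPM after TMM scaling, which adjusts library sizes by a trimmed mean. Reads in genes numbered 34662707 to 42255967 in the libraries labelled Rorβ-CRISPR and 40772380 to 42603315 in control, and 1 read was worth 0.0217 to 0.0271 across the 6 libraries. Reads of Rorb itself numbered 69, 78 and 111 in the libraries labelled Rorβ-CRISPR, against 1, 3 and 0 in control, so the targeted RNA was higher where the label says knockout. Whether the labels of the groups were exchanged cannot be told from the files used here. Directions below follow the labels, and an exchange would turn every one of them. All 10 osteoblast markers had reads and all were called by limma-trend with Benjamini-Hochberg adjustment at 0.05, 4 higher and 6 lower in the libraries labelled Rorβ-CRISPR, beside 66.2% of the 13498 tested genes called, 32.9% higher and 33.3% lower. Ibsp (log2 1.93), Alpl (1.01), Sp7 (0.26) and Runx2 (0.22) rose, while the collagen genes Col1a1 (-0.77) and Col1a2 (-0.82), Sparc (-0.64), Spp1 (-0.84), Bglap (-1.11) and Bglap2 (-1.39) fell. The summed value was 42752 to 44095 in the libraries labelled Rorβ-CRISPR and 72147 to 74615 in control, most of it from Col1a1 (20891 ± 539 and 35509 ± 1018, SD, n = 3 each) and Col1a2 (17252 ± 267 and 30527 ± 339). Several defining markers of other lineages had no reads. Myod1, Myf5 and Myog (skeletal muscle), Plin1 and Cd36 (adipose), Rbfox3, Snap25 and Nefl (neurons) and Cdx2, Prl3d1, Prl2c2 and Hand1 (trophoblast) had 0 reads in all 6 libraries, and the 8 trophoblast markers together reached at most 0.499 in the libraries labelled Rorβ-CRISPR and 0.198 in control. Summed over 8 markers, adipose genes gave 9.46 to 9.71 in the libraries labelled Rorβ-CRISPR and 7.66 to 10.1 in control, muscle genes 3.30 to 3.67 and 8.51 to 9.71, and neuronal genes 47.6 to 54.0 and 43.6 to 49.9. The 7 blood markers with a row gave 14.2 to 15.2 and 20.4 to 23.4, with Adgre1 and Cd3e at 0. Few of these genes reached the level for testing. The 1 adipose gene tested, Cebpa, was not called. The 2 muscle genes, Des (log2 -1.45) and Acta1 (-0.28), were lower. The Acta1 call was lost without replicate 1 or 2 of the libraries labelled Rorβ-CRISPR or control replicate 1. Neuronal Tubb3 was higher, 32.3 ± 3.29 in the libraries labelled Rorβ-CRISPR against 6.12 ± 0.677 in control (log2 2.23). Map2 was lower, 18.8 ± 0.201 against 40.4 ± 3.47 (log2 -1.06), so the similar neuronal sums hold opposite changes. Of the 2 blood genes, Lyz2 was lower (log2 -0.88) and Csf1r was not called. What part these sums have in the results below was not tested, and in bulk RNA fewer cells of a type and less RNA per cell cannot be told apart.

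The start regions of Mest and Plagl1 are shown because these 2 genes moved farthest, in opposite directions, and each is known to be imprinted through a CpG-rich promoter that is methylated on the maternal copy. The windows are from RefSeq, build GRCm38.p6, plus strand, 250 bases before to 50 after an annotated start, and capitals mark CpG dinucleotides. Mest lies at chr6:30737800-30738099 (1 of its 3 annotated starts, another of which lies 3 bases away) and Plagl1 at chr10:13090582-13090881.
Mest: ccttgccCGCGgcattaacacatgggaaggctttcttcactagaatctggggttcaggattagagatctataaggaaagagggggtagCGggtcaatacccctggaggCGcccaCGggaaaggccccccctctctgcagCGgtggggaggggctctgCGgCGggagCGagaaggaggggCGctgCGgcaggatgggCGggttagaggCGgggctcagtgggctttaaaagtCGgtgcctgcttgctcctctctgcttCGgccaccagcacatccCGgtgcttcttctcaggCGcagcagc
Plagl1: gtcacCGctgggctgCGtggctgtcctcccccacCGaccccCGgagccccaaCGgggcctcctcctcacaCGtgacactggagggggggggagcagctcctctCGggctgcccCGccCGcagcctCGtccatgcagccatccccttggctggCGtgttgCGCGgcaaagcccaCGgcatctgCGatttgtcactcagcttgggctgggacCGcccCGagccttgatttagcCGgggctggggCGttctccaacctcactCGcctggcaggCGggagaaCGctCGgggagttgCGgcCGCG
The Mest window holds 17 CpG and the Plagl1 window 26, more than 68.6% and 83.1% of the 32851 RefSeq promoter windows, whose median is 7. RefSeq promoters were matched for 7 of the 10 genes, with 11 starts. H19, Peg10 and Sgce were not matched. The most CpG-rich of the 11 was a start of Grb10, with 45. The palindrome GGGGCCCC, a sequence described for zinc finger proteins of the Plagl1 family, occurred in 1 of the 11 windows, that of Peg3, and in 1.08% of all windows. The receptor half-site AGGTCA, searched on both strands, occurred in 1 of the 11, a start of Meg3, and in 16.3% of all windows. TAGGTCA, which contains it, occurred in 0 of the 11 and in 2.61% of all windows. These matches describe the letters of the windows. Reads counted per gene assign no transcript to a start and show no methylation.

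Of the 10 genes, 7 had at least 1 read and 5 reached the level at which genes were tested (1 or more in 3 or more of the libraries). The 5 were Mest, Plagl1, Grb10, Peg10 and Sgce. Mest was higher and the other 4 lower in the libraries labelled Rorβ-CRISPR. No overlap between groups was seen in 6 of the 7 members with reads, against 43.0% of all rows with reads, and in all 5 tested members, against 68.4% of tested genes. Because the members were chosen on this contrast, nothing is read from these counts.

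**Figure D1:**
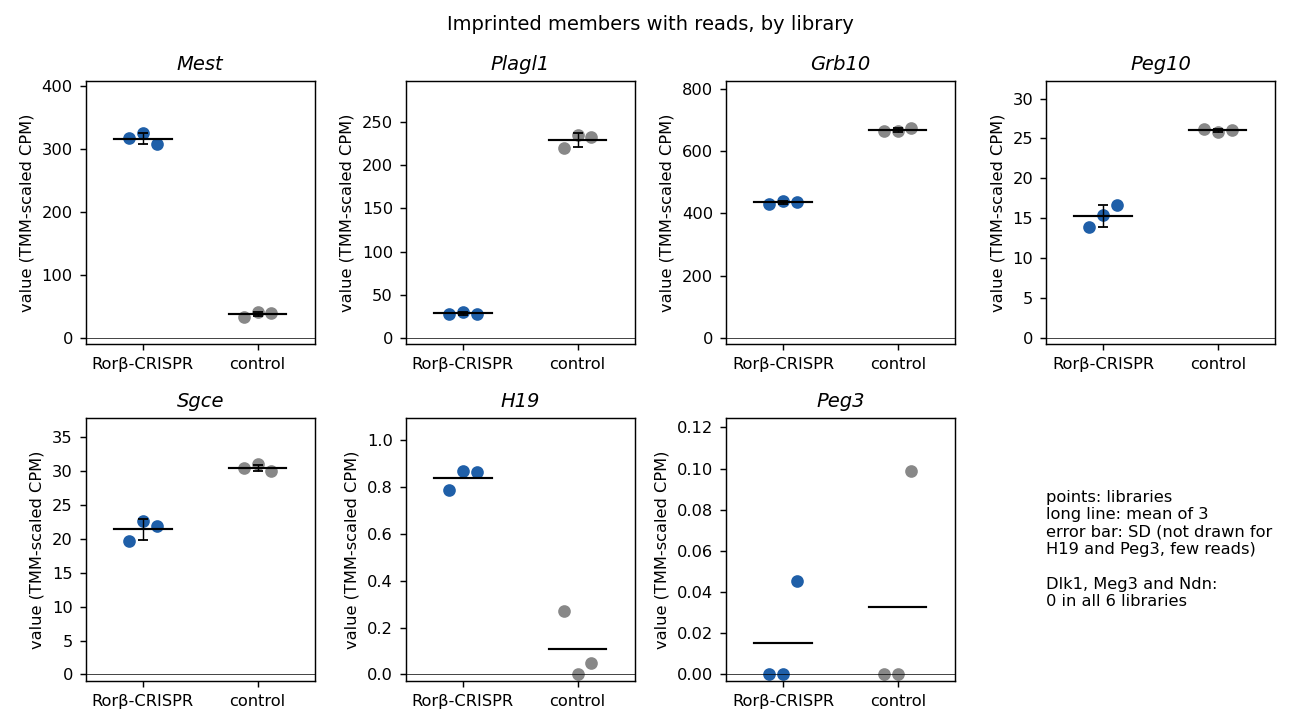
Values (TMM-scaled CPM, linear axes) of the 7 imprinted genes with reads in the 3 libraries labelled Rorβ-CRISPR (left, blue) and the 3 control libraries (right, grey). Points are libraries, the long line is the mean and the bar the SD, not drawn for H19 and Peg3. Mest lies between 307 and 324 on the left and between 33.3 and 40.3 on the right, Plagl1 between 27.3 and 29.5 on the left and between 219 and 235 on the right, and H19 and Peg3 stay below 1 in all libraries.

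Mest encodes a membrane-associated protein of the alpha/beta hydrolase fold and is expressed from the paternal copy. Its values were 316, 324 and 307 in the libraries labelled Rorβ-CRISPR, against 33.3, 40.3 and 39.3 in control. Every library labelled Rorβ-CRISPR lay far above every control library, and the lowest control value was that of replicate 1. The means were 316 ± 8.85 and 37.6 ± 3.82 (SD, n = 3 each), an 8.40-fold difference. On the log2(value + 1) scale the difference was 3.04 (SE 0.073), the 11th highest of the 13498 tested genes. In the authors' deposited table its fold is 8.39.

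Plagl1 went the other way. Its values were 27.3, 29.5 and 27.7 in the libraries labelled Rorβ-CRISPR, against 219, 235 and 233 in control. The groups were as far apart as for Mest and the spread within each was small. The means were 28.2 ± 1.17 and 229 ± 8.39 (SD, n = 3 each), 8.14-fold lower in the libraries labelled Rorβ-CRISPR. The log2 difference was -2.98 (SE 0.037), the 17th lowest of the tested genes. In the authors' deposited table its fold is 0.123.

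The ratio of Mest reads to Plagl1 reads within a library does not depend on the scaling between libraries. It was 11.6, 11.0 and 11.1 in the libraries labelled Rorβ-CRISPR, against 0.152, 0.172 and 0.168 in control. Mest reads thus outnumbered Plagl1 reads in each library labelled Rorβ-CRISPR and were outnumbered in each control library.

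Grb10 encodes an adaptor protein that binds activated insulin and insulin-like growth factor receptors and restrains growth. It was the most abundant of the 10 genes by reads, with values of 430, 440 and 435 in the libraries labelled Rorβ-CRISPR, against 666, 663 and 676 in control. The groups were clearly separate, and the spread within each was close to 1% of the mean (1.10% and 0.962%). The means were 435 ± 4.78 and 668 ± 6.43 (SD, n = 3 each), with a log2 difference of -0.62 (SE 0.022). For comparison, the median coefficient of variation of the tested genes was 4.24% in the libraries labelled Rorβ-CRISPR and 4.26% in control. Those genes include many with far fewer reads than Grb10, and genes of a like level were not compared separately.

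Peg10 and Sgce are neighbours on chromosome 6, expressed from the paternal copy and read in opposite directions from a shared start region. Peg10 derives from a retrotransposon and is needed for the placenta, and Sgce encodes epsilon-sarcoglycan, a membrane protein of the dystrophin-associated complex. Peg10 values were 13.8, 15.3 and 16.6 in the libraries labelled Rorβ-CRISPR, against 26.2, 25.8 and 26.0 in control. The libraries labelled Rorβ-CRISPR were more spread than the control libraries, with coefficients of variation of 9.15% and 0.801%, and all lay below them. The means were 15.3 ± 1.40 and 26.0 ± 0.208 (SD, n = 3 each), with a log2 difference of -0.73 (SE 0.062).

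Sgce values were 19.7, 22.6 and 22.0 in the libraries labelled Rorβ-CRISPR, against 30.4, 31.0 and 30.0 in control. As for Peg10, replicate 1 was the lowest of the libraries labelled Rorβ-CRISPR, and the groups did not overlap. The means were 21.4 ± 1.56 and 30.5 ± 0.468 (SD, n = 3 each), with a log2 difference of -0.49 (SE 0.056). The ratio of Peg10 reads to Sgce reads within a library was 0.704, 0.678 and 0.757 in the libraries labelled Rorβ-CRISPR, against 0.862, 0.832 and 0.867 in control. Every library labelled Rorβ-CRISPR lay below every control library in this ratio, so the difference between groups was larger for Peg10 than for Sgce.

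H19 is a noncoding RNA expressed from the maternal copy. It lay below the tested level in every library. Its reads numbered 29, 40 and 38 in the libraries labelled Rorβ-CRISPR (values 0.785, 0.868 and 0.862), against 10, 0 and 2 in control (values 0.271, 0 and 0.0495). Each library labelled Rorβ-CRISPR held more H19 reads than any control library, and 10 of the 12 control reads came from replicate 1. Summed over libraries and divided by the effective library sizes, the ratio was 8.13 (95% exact interval from the counts, 4.47 to 16.2). Without control replicate 1 the control libraries hold 2 reads and the ratio is 33.2, with an interval of 8.98 to 278, so its size rests on that library. The intervals cover counting error only. In the authors' deposited table its fold is 7.88.

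Peg3, which encodes a zinc finger protein, had 0, 0 and 2 reads in the libraries labelled Rorβ-CRISPR, against 0, 0 and 4 in control. These counts show no difference that could be read at this depth. Dlk1, the membrane protein known for holding preadipocytes undifferentiated, Meg3, the noncoding RNA of the same domain, and Ndn, which encodes necdin, had 0 reads in all 6 libraries. A count of 0 allows up to 3 reads, a value of 0.065 to 0.081, in each library.

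Levels of different genes were compared per kilobase of annotated exon (GENCODE vM21), an annotation other than the one used for counting. In the libraries labelled Rorβ-CRISPR the mean level per kilobase was 80.1 ± 2.24 for Mest, 47.9 ± 0.526 for Grb10, 3.60 ± 0.150 for Plagl1, 2.29 ± 0.209 for Peg10 and 2.02 ± 0.147 for Sgce. In control it was 73.5 ± 0.708 for Grb10, 29.3 ± 1.07 for Plagl1, 9.54 ± 0.969 for Mest, 3.90 ± 0.031 for Peg10 and 2.87 ± 0.044 for Sgce (SD, n = 3 each). Mest was thus the first of these genes in the libraries labelled Rorβ-CRISPR and the third in control. The levels of Peg10 and Sgce overlapped within 1 SD in the libraries labelled Rorβ-CRISPR, although Peg10 was the higher within each of these libraries. Among 12769 tested genes with a length, the level of Mest per kilobase exceeded 97.1% in the libraries labelled Rorβ-CRISPR and 63.9% in control. That of Plagl1 exceeded 35.3% in the libraries labelled Rorβ-CRISPR and 89.0% in control. Of all reads of the 10 genes, Mest took 37.9% to 39.1% in the libraries labelled Rorβ-CRISPR and 3.41% to 4.05% in control, and Plagl1 took 3.38% to 3.54% and 22.5% to 23.6%.

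**Figure D2:**
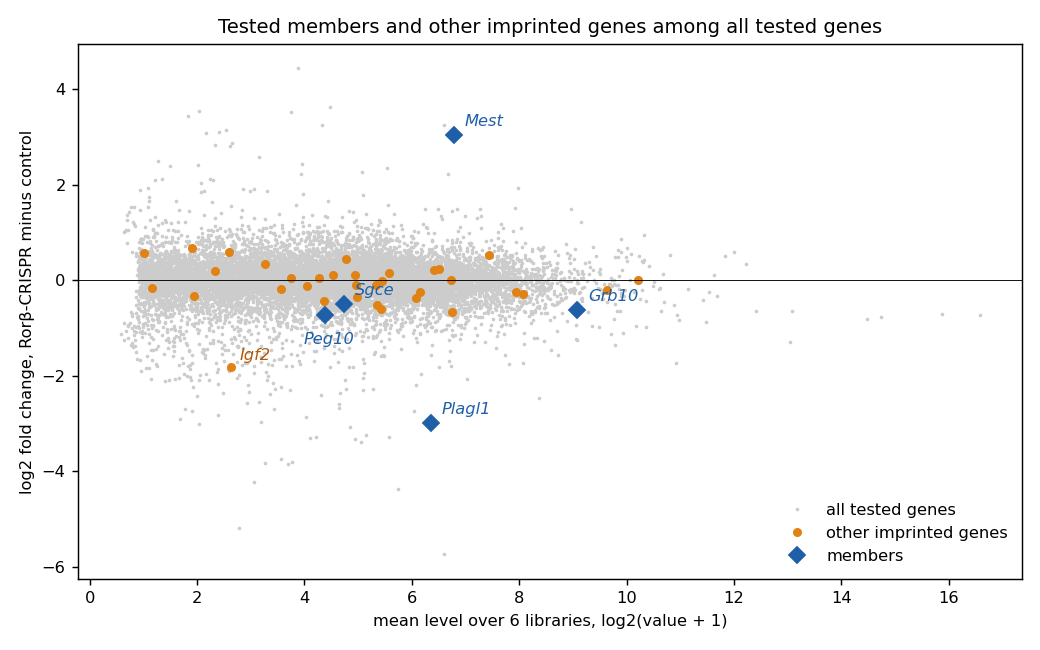
Each point is 1 of 13498 tested genes, placed by its mean level over 6 libraries (x, log2(value + 1)) and its log2 fold change, Rorβ-CRISPR minus control (y). Blue diamonds are the 5 tested members and orange points the 34 other tested imprinted genes. Mest (3.04) and Plagl1 (-2.98) lie near the edges of the cloud at middle levels, and Grb10 (-0.62), Peg10 (-0.73) and Sgce (-0.49) lie nearer its centre.

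The tested genes next to each member were examined next, by their order in the RefSeq annotation of GRCm38.p6, with limma-trend and Benjamini-Hochberg adjustment over all tested genes. The background was 32.9% of tested genes higher and 33.3% lower. On chromosome 6, Cep41, a centrosomal protein gene before Mest, fell in the libraries labelled Rorβ-CRISPR (27.1 ± 0.458 against 33.6 ± 1.03 in control, log2 -0.30, SE 0.050, adjusted p = 9.17e-07). Copg2, which encodes a coatomer subunit and follows Mest on the opposite strand, rose, with values of 204, 209 and 208 in the libraries labelled Rorβ-CRISPR, against 145, 139 and 148 in control (log2 0.52, SE 0.029, adjusted p = 1.05e-21). The groups did not overlap for either neighbour, as for 68.4% of all tested genes. The call of Cep41 was lost with library size only, that is without TMM (adjusted p = 0.335). Mest and Copg2 share 912 bases in GENCODE vM21. The counting strand is not given in the sources used here, so reads in those bases cannot be assigned to 1 of the pair. The ratio of Mest reads to Copg2 reads within a library was 1.55, 1.55 and 1.48 in the libraries labelled Rorβ-CRISPR, against 0.230, 0.291 and 0.265 in control.

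Of the 3 nearest tested genes on each side of Plagl1 on chromosome 10, the nearest on both sides rose slightly in the libraries labelled Rorβ-CRISPR, and of the others 2 fell, 1 rose and 1 was not called. Sf3b5, a splicing factor gene, had values of 47.8 ± 1.08 in the libraries labelled Rorβ-CRISPR and 44.0 ± 2.11 in control (log2 0.12, adjusted p = 0.0179), and Ltv1, a ribosome assembly gene, had 42.8 ± 2.02 and 38.4 ± 1.37 (log2 0.15, adjusted p = 0.00316). The call of Sf3b5 was lost without replicate 1 of the libraries labelled Rorβ-CRISPR and without control replicate 2 or 3, with an adjusted p of up to 0.108. Phactr2, a phosphatase and actin regulator gene beyond Ltv1, was 42.1 ± 0.504 in the libraries labelled Rorβ-CRISPR and 43.0 ± 2.70 in control (adjusted p = 0.621). Fuca2, a fucosidase gene beyond Phactr2, fell to 3.49 ± 0.697 in the libraries labelled Rorβ-CRISPR, against 14.5 ± 0.846 in control (log2 -1.80, adjusted p = 7.21e-22). Beyond Sf3b5, the syntaxin gene Stx11 fell to 9.78 ± 0.987, against 13.9 ± 0.438 in control (log2 -0.47, adjusted p = 5.31e-07), and Utrn, the gene of utrophin, rose slightly (log2 0.09, adjusted p = 0.00303). On chromosome 11, Ddc (dopa decarboxylase) on one side of Grb10 rose to 6.36 ± 0.255 in the libraries labelled Rorβ-CRISPR, against 3.91 ± 0.405 in control (log2 0.59, adjusted p = 6.34e-07). Cobl, an actin nucleator gene on the other side, was 37.9 ± 0.301 in the libraries labelled Rorβ-CRISPR and 40.9 ± 1.48 in control (log2 -0.11, adjusted p = 0.0347). The direction of Cobl turned with library size only (log2 0.11), and its call was lost under 6 alternatives (adjusted p up to 0.175), among them leaving out replicate 1 or 3 of the libraries labelled Rorβ-CRISPR or control replicate 2.

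Around Peg10 and Sgce, Pon3 and Pon2, which encode paraoxonases and are imprinted in placenta, fell as well. Pon3 was 27.1 ± 1.05 in the libraries labelled Rorβ-CRISPR and 34.7 ± 0.877 in control (log2 -0.35, adjusted p = 4.36e-08), and Pon2 was 16.8 ± 0.607 and 23.0 ± 0.650 (log2 -0.43, adjusted p = 1.46e-08). With library size only, Pon3 was not called (adjusted p = 0.115). Pdk4, beyond Pon2, and Col1a2, on the Sgce side, fell farther than Pon3 and Pon2 (log2 -1.16 and -0.82, limma-trend adjusted p = 3.33e-28 and 1.24e-44). Neither Pdk4 nor Col1a2 is among the imprinted genes listed here. Casd1, a sialic acid acetyltransferase gene on the Sgce side, was 38.5 ± 2.85 in the libraries labelled Rorβ-CRISPR and 35.7 ± 1.81 in control (adjusted p = 0.0598). Without replicate 3 of the libraries labelled Rorβ-CRISPR, without control replicate 2, with a replicate block or with library size only, Casd1 was called higher (adjusted p down to 1.18e-05). Ppp1r9a and Asb4, imprinted genes of the same stretch, had at most 4 reads in any library, and Calcr and Tfpi2 had 0 in all 6. The median log2 fold change was -0.06 for 566 tested genes of chromosome 6, -0.04 for 587 of chromosome 10 and -0.03 for 999 of chromosome 11, against 0.002 for all tested genes. Measured from these medians, the 5 tested members lay at 3.10 (Mest), -2.94 (Plagl1), -0.59 (Grb10), -0.68 (Peg10) and -0.43 (Sgce).

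**Figure D3:**
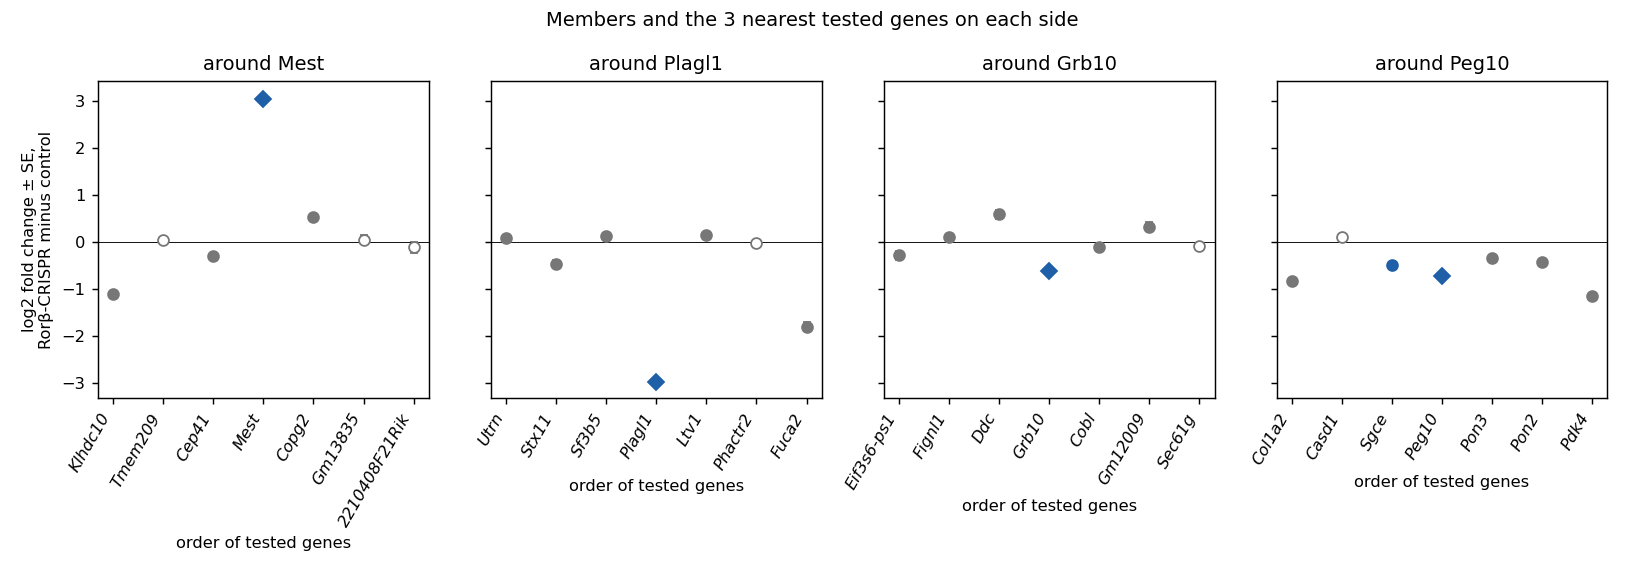
Log2 fold changes, Rorβ-CRISPR minus control, with SE (y) of Mest, Plagl1, Grb10 and Peg10 (diamonds) and the 3 nearest tested genes on each side in annotation order (x). Open circles are genes not called at an adjusted p of 0.05, and Sgce, itself a member, is the blue circle beside Peg10. Mest at 3.04 stands above neighbours at -1.11 to 0.52, Plagl1 at -2.98 stands below neighbours at -1.80 to 0.15, and Peg10 lies among neighbours that are mostly below 0.

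H19 shares its domain and enhancers with Igf2, the gene of insulin-like growth factor II, which is read from the paternal copy. Igf2 values were 2.71, 1.78 and 2.47 in the libraries labelled Rorβ-CRISPR, against 10.6, 10.5 and 10.8 in control. Igf2 thus fell (log2 -1.82, limma-trend adjusted p = 5.07e-22), while the H19 reads were more numerous in the libraries labelled Rorβ-CRISPR. Mrpl23, a mitochondrial ribosomal protein gene on the far side of H19, rose slightly to 6.34 ± 0.524 in the libraries labelled Rorβ-CRISPR, against 5.21 ± 0.620 in control (log2 0.24, adjusted p = 0.0234). That call was lost under 5 alternatives (adjusted p up to 0.162), among them leaving out replicate 1 or 3 of the libraries labelled Rorβ-CRISPR or control replicate 2.

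The domain of Dlk1 and Meg3 on chromosome 12 was almost silent. Rian had 2, 4 and 2 reads in the libraries labelled Rorβ-CRISPR, against 4, 3 and 10 in control, and Rtl1 had 8, 5 and 9, against 9, 3 and 3. Mirg, a noncoding RNA of the domain, had 8 reads in each library labelled Rorβ-CRISPR, against 0, 2 and 4 in control. Dio3, the deiodinase gene at the end of the domain, reached the level for testing, through the libraries labelled Rorβ-CRISPR alone. Its reads numbered 39, 66 and 84 in the libraries labelled Rorβ-CRISPR, against 28, 26 and 22 in control. Its values were 1.06, 1.43 and 1.91 in the libraries labelled Rorβ-CRISPR, against 0.758, 0.675 and 0.544 in control (log2 0.56, SE 0.128), and since a gene that enters through its higher group had to differ, no p is given. Begain, a gene of neuronal synapses and the nearest tested gene on the other side, rose to 2.67 ± 0.282 in the libraries labelled Rorβ-CRISPR, against 1.10 ± 0.037 in control (log2 0.80, limma-trend adjusted p = 2.18e-08).

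In the domain of Ndn on chromosome 7, Magel2 and Snurf had 0 reads in all 6 libraries. Snrpn is listed in a pair of rows, the larger of which had 6, 4 and 4 reads in the libraries labelled Rorβ-CRISPR, against 7, 2 and 5 in control. Snrpn and Snurf are known to share exons, and how reads of shared exons were counted is not given in the sources used here. Mkrn3 had 40, 38 and 30 reads in the libraries labelled Rorβ-CRISPR, against 26, 23 and 27 in control, below the tested level. Ube3a, the ubiquitin ligase gene of that region, and Atp10a, a lipid flippase gene, rose (log2 0.21 and 0.43, adjusted p = 1.23e-06 and 1.19e-09). The nearest tested rows beside Ndn were Gm7367, not called (adjusted p = 0.375), and Gm5898, lower at -0.23 (adjusted p = 0.0364). The call of Gm5898 was lost under 7 alternatives (adjusted p up to 0.751), among them leaving out replicate 1 or 2 of the libraries labelled Rorβ-CRISPR or control replicate 1 or 3. In the domain of Peg3, Usp29 had 0 reads in all libraries and Zim1 had 4 reads in 1 library labelled Rorβ-CRISPR and 0 in the others. The nearest tested genes there, Zfp28 and Zfp954, were not called (log2 0.16 and -0.03, adjusted p = 0.0988 and 0.817). Zfp28 was called higher without replicate 1 of the libraries labelled Rorβ-CRISPR and with library size only (adjusted p down to 3.90e-04), and the direction of Zfp954 turned with library size only and without replicate 3 of the libraries labelled Rorβ-CRISPR or control replicate 2.

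Beyond the 10 genes, 67 other imprinted genes were listed, of which 64 had a row, 52 had a read and 34 were tested. The list includes neighbours already given above, such as Igf2, Copg2, Pon2 and Pon3. Whether each listed gene is imprinted in these cells was not tested. Of the 34, 9 rose (26.5%), 14 fell (41.2%) and 11 were not called. Dio3, which entered through its higher group alone, is among the 9. Their median log2 fold change was -0.07, beside 32.9% higher, 33.3% lower and a median of 0.002 for all tested genes. With library size only, which shifts the median of all tested genes by 0.21 (log2), 17 were higher and 6 lower. Calls upward then made up 73.9% of the calls in the list, against 39.1% with the reported scaling, and 78.7% against 49.7% over all genes.

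Of the 67, 6 are usually placed in the imprinted network with Plagl1. Among the 5 of them that were tested, Igf2 (above), Igf2r and Dcn fell, Gatm rose and Gnas was not called. These are 20% higher and 60% lower, beside 32.9% and 33.3% of all tested genes. With library size only, 2 of the 5 were higher and 1 lower, beside 7291 and 1975 of all tested genes. Igf2r, the receptor that clears insulin-like growth factor II, was 242 ± 8.05 in the libraries labelled Rorβ-CRISPR and 294 ± 1.42 in control (log2 -0.28, adjusted p = 2.16e-13). Dcn, the gene of the matrix proteoglycan decorin, was 743 ± 11.9 and 852 ± 7.50 (log2 -0.20, adjusted p = 1.29e-11). With library size only neither was called, and Dcn lay at 0.03. Gatm, a creatine synthesis gene, was 3.73 ± 0.213 and 1.97 ± 0.135 (log2 0.67, adjusted p = 2.60e-07). Gnas, the gene complex of the stimulatory G protein alpha subunit, was 1194 ± 6.18 in the libraries labelled Rorβ-CRISPR and 1184 ± 34.4 in control (adjusted p = 0.604, or 2.55e-04 and higher with library size only). Cdkn1c, a cell cycle inhibitor gene, had at most 4 reads in any library.

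Apart from these, H13, a signal peptide peptidase gene, and Blcap fell most, with log2 fold changes of -0.67 (adjusted p = 7.06e-24) and -0.60 (adjusted p = 9.16e-17). H13 was 83.7 ± 2.73 in the libraries labelled Rorβ-CRISPR and 134 ± 3.43 in control. Kcnq1ot1, the noncoding RNA that silences its domain, rose to 9.88 ± 0.510 in the libraries labelled Rorβ-CRISPR, against 7.63 ± 0.838 in control (log2 0.34, adjusted p = 4.68e-04). Impact, a regulator of translation under stress, rose as well (log2 0.23, adjusted p = 1.28e-07). All p-values of these paragraphs are from limma-trend with Benjamini-Hochberg adjustment.

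**Figure D4:**
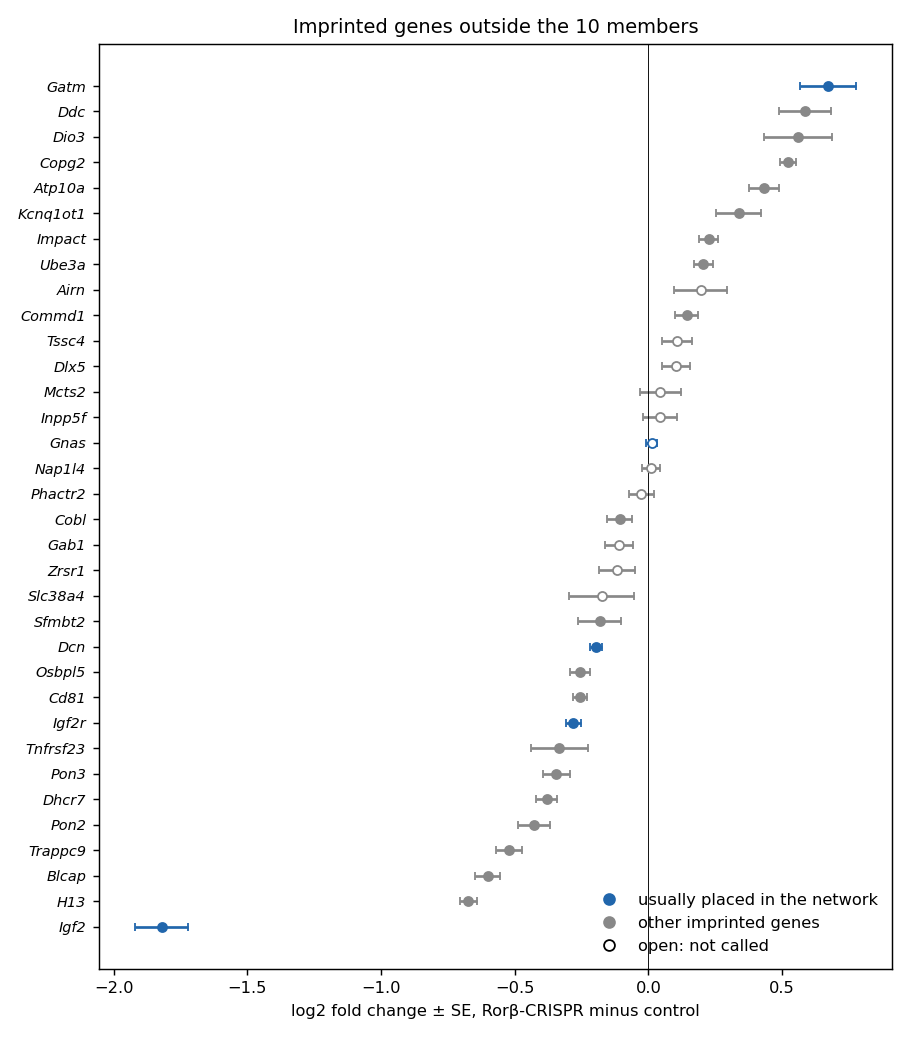
Log2 fold changes, Rorβ-CRISPR minus control, with SE (x) of the 34 tested imprinted genes outside the 10 members (rows, highest at the top). Blue marks genes usually placed in the network with Plagl1 and open circles genes not called. All lie between -0.67 and 0.67 except Igf2 at -1.82.

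Relatives of the members went either way. Of 11 tested paralogs and close relatives, 6 rose in the libraries labelled Rorβ-CRISPR, 4 fell and 1 was not called (54.5% and 36.4%, median log2 0.34), beside 32.9% higher, 33.3% lower and a median of 0.002 over all tested genes. Plagl2, a relative of Plagl1, rose, with values of 27.9, 27.4 and 27.7 in the libraries labelled Rorβ-CRISPR, against 18.6, 18.2 and 18.5 in control (log2 0.56, adjusted p = 1.01e-12). Plag1, another relative of Plagl1, rose too (log2 0.34, limma-trend adjusted p = 1.97e-04). Plagl1 reads were 0.977, 1.08 and 0.999 times those of Plagl2 in the libraries labelled Rorβ-CRISPR, against 11.8, 12.9 and 12.6 times in control. Grb14, an adaptor of the Grb10 family, fell to 2.26 ± 0.217 in the libraries labelled Rorβ-CRISPR, against 8.46 ± 0.285 in control (log2 -1.54, adjusted p = 1.59e-19). Maged2 and Maged1, relatives of the silent Ndn on chromosome X, rose, Maged2 to 176 ± 0.803 in the libraries labelled Rorβ-CRISPR, against 64.4 ± 3.38 in control (log2 1.44, adjusted p = 1.62e-37), and Maged1 to 607 ± 4.84, against 358 ± 2.55 (log2 0.76, adjusted p = 3.74e-33).

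Of 14 tested genes of insulin and insulin-like growth factor signalling around Grb10, 3 rose and 8 fell (21.4% and 57.1%, median log2 -0.12), beside 32.9% and 33.3% of all tested genes. With library size only, 6 were higher and 2 lower, beside 7291 higher and 1975 lower of the 13498 tested genes. Shc1, another adaptor of these receptors, fell to 96.4 ± 2.54 in the libraries labelled Rorβ-CRISPR, against 166 ± 6.87 in control (log2 -0.78, adjusted p = 5.23e-27). Pik3r1, the regulatory subunit of phosphoinositide 3-kinase, fell (log2 -0.53, adjusted p = 2.08e-23) and the kinase gene Akt1 rose (log2 0.28, adjusted p = 1.88e-13). The receptor gene Igf1r fell to 33.2 ± 1.93, against 40.0 ± 1.38 in control (log2 -0.26, adjusted p = 5.91e-06), a call lost with library size only (adjusted p = 0.61).

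Of 11 tested genes of the dystrophin-associated complex, to which epsilon-sarcoglycan belongs, 4 rose, 4 fell and 3 were not called (median log2 0.01). These shares, 36.4% each way, lie near the 32.9% and 33.3% of all tested genes. The beta- and delta-sarcoglycan genes, which the list of relatives holds too, fell, Sgcb to 52.9 ± 1.98 in the libraries labelled Rorβ-CRISPR, against 72.4 ± 1.62 in control (log2 -0.45, adjusted p = 2.91e-14), and Sgcd to 39.0 ± 2.43, against 57.1 ± 1.13 (log2 -0.54, adjusted p = 2.46e-15). The syntrophin genes Sntb1 and Sntb2 fell too, at -0.67 and -0.51 (adjusted p = 7.14e-11 and 1.78e-18). Reads of Sgce were 0.360, 0.446 and 0.412 times those of Sgcb in the libraries labelled Rorβ-CRISPR, against 0.420, 0.438 and 0.406 times in control, and these ranges overlap.

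Genes of imprint maintenance and DNA methylation were mostly detected. Of 19 tested, 10 rose, 3 fell and 6 were not called in the libraries labelled Rorβ-CRISPR (52.6% and 15.8%, median log2 0.09), beside 32.9% and 33.3% of all tested genes. With library size only 14 were higher and 0 lower, beside 7291 and 1975 of all tested genes. Tet2, which encodes an enzyme that oxidizes methylcytosine, rose to 10.5 ± 0.869 in the libraries labelled Rorβ-CRISPR, against 6.34 ± 0.615 in control (log2 0.65, adjusted p = 4.36e-09). The methyltransferase gene Dnmt3b rose to 4.61 ± 0.592, against 3.16 ± 0.583 in control (log2 0.44, adjusted p = 3.95e-04), and the chromatin gene Smchd1 to 114 ± 3.34, against 92.6 ± 5.25 (log2 0.29, adjusted p = 6.59e-10). Tet1 fell to 22.8 ± 1.07, against 27.2 ± 1.70 in control (log2 -0.24, adjusted p = 1.70e-04), a call lost with library size only (adjusted p = 0.764).

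The tested genes most like Mest over the 6 libraries, by the Euclidean distance of log2(value + 1) centred on each gene's mean, were Smpd3 (distance 0.291), Prrg1 (0.310), Als2cl (0.342), Gpr116 (0.353) and Alcam (0.403). Those most like Plagl1 were Pde5a (0.177), Col18a1 (0.224), Rgs2 (0.241), Vit (0.267) and Ccdc8 (0.302). With 3 libraries in each of 2 groups, this distance mostly measures how alike the differences between the groups are. Smpd3, a sphingomyelinase gene, had means of 298 ± 7.32 in the libraries labelled Rorβ-CRISPR and 30.8 ± 1.34 in control, levels close to those of Mest. Col18a1, a basement membrane collagen gene, had 8.95 ± 0.630 and 82.6 ± 2.04. Pde5a, a cyclic GMP phosphodiesterase gene, had 0.175 ± 0.040 and 7.80 ± 0.683, so its ratio of means was farther from 1 than that of Plagl1, on a scale that understates changes of low genes.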

How the data were processed

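RNA was sequenced in 3 libraries labelled Rorβ-CRISPR and 3 control libraries. Per the submitters' processing notes, reads were handled with TopHat2 2.0.6 and HTSeq on the mouse build mm9. Annotation, counting options and strand: not given in the sources used here. Each library's values are a deposited signal, scaled with TMM per the file headers. A median count for each group and a fold (ratio) between groups were deposited too. Dividing by what 1 read is worth gave whole reads for 100% of values in every library (within 0.01), and medians of the recovered reads equalled the deposited medians in all 43346 rows.

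Rows reaching 1 in 3 or more libraries were tested with limma-trend (robust) on log2(value + 1), without covariates, with Benjamini-Hochberg adjustment at 0.05. This scale understates changes of low genes. The test was also run on simulated counts with equal numbers of genes raised and lowered, scaled by library size only. That run cannot bear on the choice between TMM and library size. Ratios of summed reads have exact 95% intervals, for counting error only.

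The members and gene lists were chosen with earlier results of these data known. Named were all members, genes sharing a domain with or flanking a member, the 5 genes nearest to Mest and Plagl1 in pattern and, in each list, up to 4 called genes of largest change. Lists of paternally and maternally expressed genes were counted together. Other genes are named after their values were seen. Chromosomes and gene order come from RefSeq GRCm38.p6. Gene coordinates are given only for the start windows of Mest and Plagl1, on GRCm38.p6, whereas the reads were handled on mm9. Alternatives were pseudocounts of 0.1 and 0.5, no filter, library size only, DESeq2 size factors, edgeR and DESeq2 on recovered reads, a replicate block, leaving out each replicate, and chromosome centring. The fits used limma 3.58.1, DESeq2 1.42.0 and edgeR 4.0.16 under R 4.3.3. Intervals used scipy 1.17.1, tables pandas 2.3.3 and figures matplotlib 3.10.9, under Python 3.11.15.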

Additional observations from a re-analysis of the deposited data

How the results depend on the processing

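The 5 tested members kept their direction under all 15 alternatives. Mest ranged from 2.96 to 3.26 (log2), Plagl1 from -3.02 to -2.76, Grb10 from -0.63 to -0.39, Peg10 from -0.79 to -0.52 and Sgce from -0.53 to -0.27. The end nearest 0 was the scaling by library size only for all but Mest, which was highest there. When 1 library was left out, the number of genes called higher was 4154 to 4286 and of genes called lower 4250 to 4321, and the other imprinted genes gave 9 to 10 higher and 12 to 15 lower. With library size only, 7291 genes were higher and 1975 lower, and of the other imprinted genes 17 were higher and 6 lower. The ratio of H19 reads ranged from 5.43 to 33.2 when 1 library was left out, highest without control replicate 1. With a replicate block, 4502 genes were higher and 4551 lower. Same-numbered libraries of the groups correlated at -0.056, 0.167 and 0.127 in their deviations from the group means. Differently numbered libraries correlated at -0.211 to 0.109. Whether the replicate numbers pair the libraries cannot be settled from these values. H19, Peg3, Dlk1, Meg3 and Ndn lie below the level for testing, so depth limits what can be said of them. Several small calls of neighbouring genes were lost when 1 library was left out, as given beside them.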

Other observations

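Mest and H19 each contain a microRNA hairpin with a row of its own, and both rows held a few reads. Mir335, inside Mest, had 2, 1 and 5 reads in the libraries labelled Rorβ-CRISPR, against 0, 0 and 0 in control, and Mir675, inside H19, had 1, 3 and 1, against 0, 0 and 0. A count of 0 allows up to 3 reads in a library, so these counts lie at the edge of detection, and such libraries do not measure mature microRNAs. The mature 5p arms are shown from RefSeq (GRCm38.p6), with the seed, bases 2 to 8, in capitals. The 2 arms do not share a seed.
mmu-miR-335-5p: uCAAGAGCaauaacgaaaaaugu
mmu-miR-675-5p: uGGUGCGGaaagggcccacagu

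Reads in Lars2, AY036118 and Yam1, 3 rows in which ribosomal RNA reads collect, made up 13.1% to 15.2% in the libraries labelled Rorβ-CRISPR and 16.9% to 25.4% in control, with the highest share in control replicate 1, which also held 10 of the 12 control reads of H19. Its part in the results was not tested.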
